A study of Drosophila ananassae with 54 samples.

Results

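The genes described here were abundant in male Drosophila ananassae bodies, close to undetected in most dissected hindgut and Malpighian tubule libraries, and present at a few percent of their body level in 1 hindgut library, FastBKK control hindgut replicate 3. They were chosen from the counts themselves. Of 14365 genes in the deposited table, 795 averaged at least 50 CPM (a gene's counts per 1000000 counts of its library) over the 18 body libraries and had a median under 1 CPM over the 18 hindgut libraries and over the 18 tubule libraries. For each of these body-restricted genes, the CPM in FastBKK control hindgut replicate 3 was divided by the mean body CPM, and the ratio is called the body ratio and given in percent. The 696 genes with a body ratio of at least 0.1 of the median of the 795 were ranked by mean body CPM, and the 200 highest were kept as members. The body ratio and the body abundance of the members, and their near absence from the other organ libraries, therefore follow from the choice and are given without a test.

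The series holds 54 libraries in 18 groups of 3, from adult males of 3 pooled lines: FastBKK (Bangkok, cold-tolerant, 4 isofemale lines), SlowBKK (Bangkok, cold-sensitive, 4 isofemale lines) and KATH (Kathmandu, cold-tolerant, 3 isofemale lines). Cold-acclimated flies were held at 10 °C for 4 days from the day after eclosion and then recovered for 90 min, whereas control flies stayed at 22 °C for 4 days. A hindgut or tubule library pooled 60 individuals and a body library pooled 10, and the body RNA was extracted with another kit (MasterPure) than the organ RNA (RNeasy). The labels do not say whether a body sample held the gut and tubules, nor whether replicates were separate rearings, so the tests measure the spread between pools. Libraries held 30.7 to 48.8 M counts (median 34.3 M), and FastBKK control hindgut replicate 3 held 32.2 M. The cold-responsive genes of SlowBKK and KATH hindguts (2040 higher and 2085 lower) were used to check the treatment label of that library. The score was the mean log2 level of the first set minus that of the second. It was -1.74 there, against -0.36 to 0.11 in the 9 cold and -1.83 to -2.002 in the other control hindgut libraries. On this score the library lay just above the other control libraries and well below the cold ones. The gene sets were called from the SlowBKK and KATH libraries, so the scores of those libraries follow from the choice.

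As background, the Malpighian tubules of insects secrete the primary urine and the hindgut takes water and ions back from it, and together they hold the ion balance that chilling disturbs. A male body sample pools many other tissues, among them muscle, fat body, nervous system and the reproductive tract, so genes of these tissues can be abundant in a body library and nearly absent from an organ library. None of the gene identifiers matched the reference gene table, so the members are given by symbol, their products are not named, and no marker of a tissue could be set beside them. In bulk RNA, fewer cells of a type and less RNA per cell cannot be told apart.

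In FastBKK control hindgut replicate 3 the members were all detected, with 58 to 3229 counts each (median 447) and a median level of 13.9 CPM (range 1.80 to 100.2 CPM). Their mean body level had a median of 260 CPM and ran between 160.9 and 2032 CPM. The body ratio had a median of 5.12% (quartiles 4.19% and 5.83%, range 0.836% to 10.3%), and 195 of the 200 members lay within 2-fold of that median. Its coefficient of variation over the members was 28.5%, beside a median of 4.73% that counting alone would give. Together the members took 0.358% of the counts of this library (exact 95% binomial interval 0.356% to 0.360%, counting error only), against 6.50% to 8.64% in the body libraries (mean 7.22%). Of the 200 members, 198 were higher in this library than in any of the other 35 organ libraries, by a median of 6.38 times over the highest of these.

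**Figure D1:**
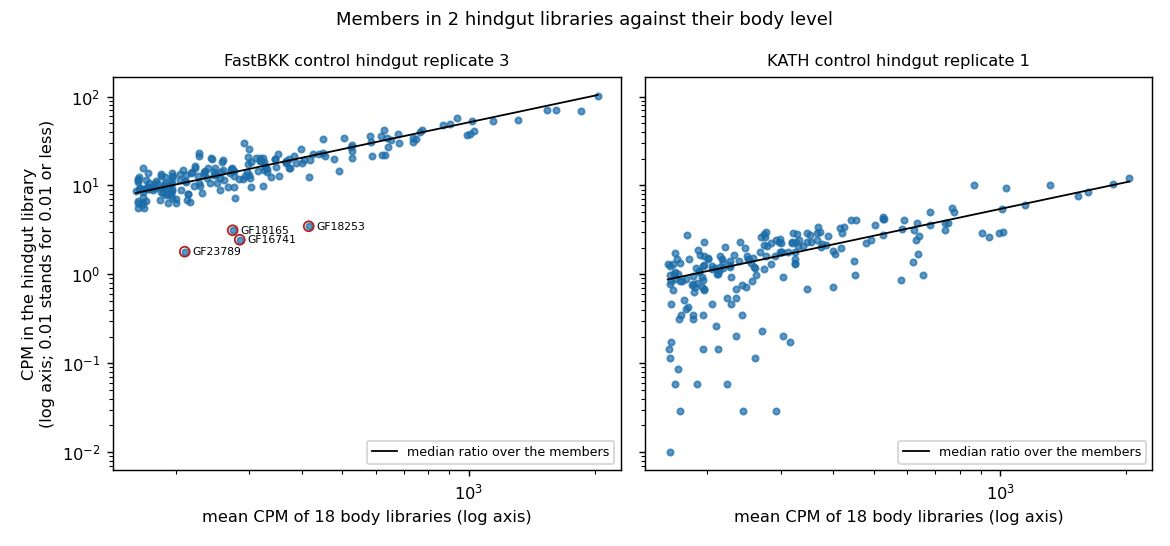
Level of each of the 200 members (points) in FastBKK control hindgut replicate 3 (left) and KATH control hindgut replicate 1 (right), in CPM on a log axis, against its mean CPM over the 18 body libraries on a log axis. The line is the median ratio over the members, 5.12% on the left and 0.544% on the right. The 4 members with the lowest ratios are circled on the left, and the points on the right scatter more widely under the line.

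GF24338 (FBgn0101332, scaffold_13337), the most abundant member, averaged 2032 CPM in the body. It reached 100.2 CPM in FastBKK control hindgut replicate 3, against 0.437 and 0.0890 CPM in FastBKK control hindgut replicates 1 and 4. GF17631 (FBgn0094649, scaffold_13340), at 1859 CPM in the body, had 68.5 CPM in the library, against 0.593 CPM in replicate 1 and 0 counts in replicate 4. The other members of highest body level were GF13605 at 1619 CPM, GF10596 at 1536 CPM, GF11165 at 1313 CPM and GF13413 at 1143 CPM, and their body ratios lay between 4.12% (GF11165) and 4.68% (GF13413). Per kilobase of the deposited gene length the order changed: the body level of GF13413 was 1267 CPM per kb, ahead of GF24338 at 969.6 and GF17631 at 448 CPM per kb. The next organ library of each of these 6 was FastBKK cold tubule replicate 3 or, for GF11165, KATH control hindgut replicate 1, with 15.7 CPM for GF24338, 12.5 CPM for GF17631 and 10.1 CPM for GF11165.

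The spread of the ratio had a short lower tail. GF18253 (0.836%), GF23789 (0.856%) and GF16741 (0.862%) had the lowest body ratios, with 112, 79 and 58 counts in the library for GF18253, GF16741 and GF23789. GF18165 followed at 1.15%. GF11131 (10.3%, 968 counts), GF17923 (10.2%, 751 counts) and GF14399 (9.36%, 685 counts) had the highest. Over the 795 body-restricted genes the ratios were split: 99 lay under 0.1 of the median of the set (5.31%), 17 between 0.1 and 0.5 of it, and 679 above 0.5. The threshold stood at 0.531%. The body-restricted genes nearest above it were GF14354 (0.611%), GF26995 (0.730%) and GF14411 (0.738%), which were too low in the body to be members, and those nearest below were GF12665 (0.484%), GF20814 (0.436%) and GF12364 (0.435%). At the edge in abundance, GF11240 (160.9 CPM in the body, ratio 5.34%) was the last member and GF13613 (159.1 CPM, 5.66%) the first gene left out.

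The same ratio in the other 35 organ libraries was far lower. FastBKK cold tubule replicate 3 had a median of 0.668% over the members, KATH control hindgut replicate 1 had 0.544% and SlowBKK cold tubule replicate 4 had 0.287%. The members summed to 3581 CPM in FastBKK control hindgut replicate 3, to 560 CPM in FastBKK cold tubule replicate 3, to 392 CPM in KATH control hindgut replicate 1, to 353 CPM in SlowBKK cold hindgut replicate 4 and to 251 CPM in SlowBKK cold tubule replicate 4. A single member, GF23789, held 280 of the 353 CPM in SlowBKK cold hindgut replicate 4 and 62.3 of the 560 CPM in FastBKK cold tubule replicate 3. The other 32 organ libraries had medians under 0.1%, and 4 of them a median of 0. A detection floor of 3 counts was 0.0615 to 0.0945 CPM in the organ libraries, so single members were often at or under the floor there. The 99 body-restricted genes under the threshold had a median of 0.0497% in FastBKK control hindgut replicate 3 and 0.103% in FastBKK cold tubule replicate 3, 0.0951% in KATH control hindgut replicate 1 and 0.0129% in SlowBKK cold tubule replicate 4. Over the other 35 organ libraries the members had the higher median ratio in 8 and the genes under the threshold in 25, and in 2 the medians were equal. In KATH control tubule replicate 1 the members had a median of 0.0561%, against 0.604% for the genes under the threshold.

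**Figure D2:**
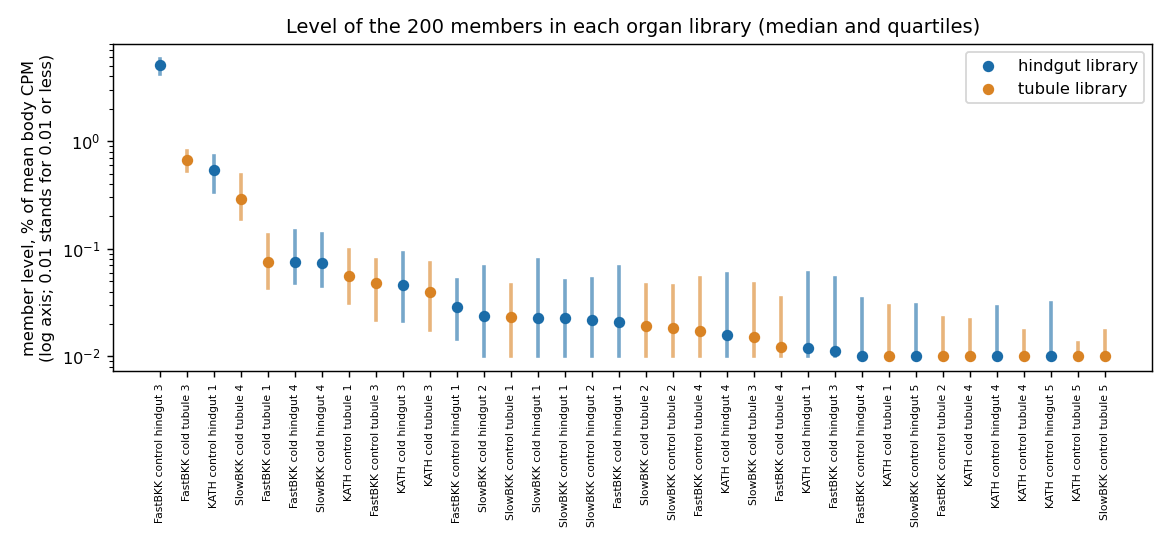
Member level in each of the 36 organ libraries as a percentage of mean body CPM, on a log axis on which 0.01 stands for 0.01 or less. Points are medians over the 200 members and bars the quartiles, with hindgut libraries in blue and tubule libraries in orange. FastBKK control hindgut replicate 3 stands at 5.12%, the next library at 0.668%, and 32 libraries under 0.1%.

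GF18165 and GF23789 were the members higher in another organ library than in FastBKK control hindgut replicate 3. GF18165 had 3.13 CPM there, against 4.77 CPM in SlowBKK cold tubule replicate 3. Its counts were 169, 178 and 149 in SlowBKK cold tubules and 90, 56 and 118 in SlowBKK control tubules. In the control hindguts of SlowBKK, GF23789 had 0.198, 0.384 and 1.13 CPM. In the cold hindguts it had 280 CPM in replicate 4 (9305 counts), against 0.719 and 0.650 CPM in replicates 1 and 2. That single library stood above its mean body level of 210 CPM. It also reached 62.3 CPM in FastBKK cold tubule replicate 3, against 0.251 and 0.0831 CPM in replicates 1 and 4 of that group. GF20814, just under the threshold, was likewise high in SlowBKK cold hindgut replicate 4, at 44.4 CPM against 5.57 and 0.857 CPM in replicates 1 and 2. GF23789 was the 1 member called higher in the cold hindgut of SlowBKK (edgeR log2 fold change 7.02 ± 1.82 SE, adjusted p = 0.00476), and no member was called there without replicate 4.

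The order of the members in FastBKK control hindgut replicate 3 was set against the order in each body group, as the SD over the members of the log2 ratio of library to body CPM, in which a lower SD is a closer profile. The members were closest to SlowBKK cold bodies, with a mean SD of 0.459 over the 3 libraries (0.452 to 0.464), and next to FastBKK cold bodies at 0.472 (0.467 to 0.479). KATH cold bodies had 0.503, KATH control bodies 0.517 and SlowBKK control bodies 0.532. FastBKK control bodies, the line and treatment of the library's own label, were the farthest at 0.563 (0.541 to 0.585). The ranges over 3 libraries did not overlap between FastBKK cold and FastBKK control bodies, nor between SlowBKK cold and SlowBKK control bodies. Between KATH cold (0.492 to 0.515) and KATH control bodies (0.512 to 0.526) they did. This order of body groups is a description, since the ratio in this library chose the members. The threshold on it left out genes whose median cold responses in the body were larger.

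The 3 libraries with the next highest levels were compared in the same way, over the 135 members with at least 20 counts in all 4 libraries. On these members FastBKK control hindgut replicate 3 was again closest to SlowBKK cold bodies (0.332) and farthest from FastBKK control bodies (0.414). FastBKK cold tubule replicate 3 was closest to SlowBKK cold (0.419) and FastBKK cold bodies (0.428), and also farthest from FastBKK control bodies (0.492). KATH control hindgut replicate 1 was closest to KATH control (0.576) and FastBKK control bodies (0.579) and farthest from SlowBKK cold bodies (0.663). SlowBKK cold tubule replicate 4 was closest to FastBKK control bodies (0.789) and farthest from SlowBKK cold bodies (0.875). The 135 members were chosen on counts in these same libraries, so these orders too are descriptions. The differences between body groups were small beside the SD itself in each library, and which body tissue gave a profile was not tested.

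**Figure D3:**
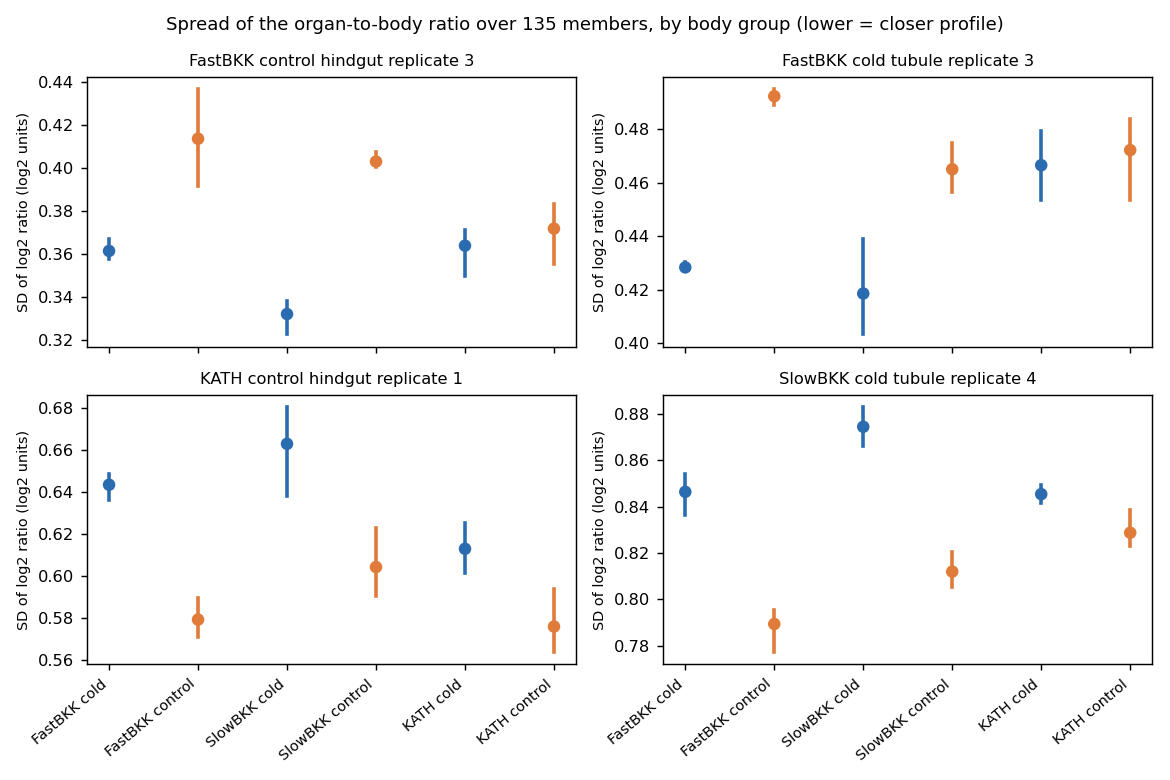
Spread of the ratio of organ level to body level over 135 members, as the SD of the log2 ratio, for 4 organ libraries (panels, each with its own range on the vertical axis) against the 6 body groups; points are means over 3 body libraries and bars run between the lowest and the highest. Cold body groups are blue and control body groups orange. The members were chosen on the ratio in FastBKK control hindgut replicate 3, so the panels are descriptions. FastBKK control hindgut replicate 3 lay lowest against SlowBKK cold bodies (0.332) and highest against FastBKK control bodies (0.414), whereas KATH control hindgut replicate 1 lay highest against SlowBKK cold bodies (0.663).

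Across the 200 members the body ratio in FastBKK control hindgut replicate 3 had a Spearman rho of 0.313 against the cold log2 fold change in FastBKK bodies, of 0.560 against that in SlowBKK bodies and of -0.04 against that in KATH bodies. These values are descriptions: the body ratio in this library is the value that chose the members, which are cut off at the threshold, and the points share the library and the body libraries that stand in both measures. In KATH control hindgut replicate 1 the same relations had the opposite sign in both Bangkok lines, with rho of -0.58 and -0.49 against FastBKK and SlowBKK, and it was -0.30 against KATH. In FastBKK cold tubule replicate 3 the values were 0.581, 0.578 and 0.0932 against FastBKK, SlowBKK and KATH. Against gene length rho was -0.18 in FastBKK control hindgut replicate 3, and the median ratio was 5.38% in the third of members up to 1161 bases and 4.82% in the third from 1965 bases.

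Cold acclimation in the body was tested gene by gene in the members, whose choice used no contrast between body groups. The choice was still not independent of the cold response, since the threshold on the ratio left out genes with large cold responses. The counts and sizes of change below therefore describe the members as chosen, and not the body-restricted genes at large. Most members that passed the test in cold bodies were lower there in each line, by small amounts. With edgeR's quasi-likelihood test and Benjamini-Hochberg adjustment over 13435 genes, 167 members were lower and 1 higher in cold KATH bodies at an adjusted p under 0.05, whereas 28.9% of all genes tested were lower and 29.7% higher. In SlowBKK 83 members were lower and 9 higher, beside 24.0% and 23.4% of all genes. In FastBKK 67 members were lower and 11 higher, beside 25.2% and 25.2% of all genes. The shares of all genes were not matched for abundance, which bears on how small a change can be called. The median body level was 260 CPM over the members and 19.2 CPM over all genes in the table. The median log2 fold change over the members was -0.22 in KATH, -0.14 in SlowBKK and -0.10 in FastBKK, with medians of 0.00 over all genes tested, and no called member changed more than 2-fold (range -0.995 to 0.48 over members and lines).

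The small falls in the Bangkok lines depended on scaling and on single libraries. With libraries scaled by their column sums alone, an alternative added after seeing the data, 25 members were lower and 19 higher in FastBKK, 37 lower and 19 higher in SlowBKK, and 178 lower and 0 higher in KATH. The member medians were then -0.03, -0.07 and -0.26, beside 0.07, 0.07 and -0.04 over all genes, in FastBKK, SlowBKK and KATH. Shares of all genes called under this scaling are not given here, so the called counts are set only against those above. The FastBKK count of lower members was 44 without cold replicate 4, 41 without control replicate 1 and 40 without control replicate 4. The SlowBKK count was 50 without cold replicate 1, 53 without cold replicate 4 and 51 without control replicate 4. In KATH it was 116 to 165 as each library was left out. The count of higher members in FastBKK was 4 and 5 without cold replicates 2 and 4, and 6 and 7 without control replicates 1 and 3. In SlowBKK it was 3 without cold replicate 4 or control replicate 2, and 4 without control replicate 3.

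Per library, the groups of KATH stood apart for most members. On the scaled CPM of the fit, all cold libraries lay under all control libraries for 176 members in KATH and above for 1, beside 32.6% and 32.4% of all genes. The counts were 78 and 25 in SlowBKK (28.5% and 28.8% of all genes) and 84 and 14 in FastBKK (28.2% and 29.0%). Summed over the members, scaled levels were 70188 ± 2493 CPM in cold and 81850 ± 1620 CPM in control KATH bodies (SD, n = 3 each). They were 65355 ± 3168 CPM in cold and 72011 ± 2722 CPM in control SlowBKK bodies, and 69286 ± 1385 CPM in cold and 74491 ± 2965 CPM in control FastBKK bodies. Unscaled, the members held 6.87% ± 0.33 of counts in cold and 8.26% ± 0.34 in control KATH bodies (SD, n = 3 each), where the ranges did not overlap. They held 6.77% ± 0.33 in cold and 7.11% ± 0.42 in control SlowBKK bodies, and 7.07% ± 0.13 in cold and 7.23% ± 0.39 in control FastBKK bodies, and in both of these lines the ranges overlapped. Set against each member's own mean over the body libraries, 199 members were above it in KATH control replicate 4, and 197 were below it in KATH cold replicate 2.

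**Figure D4:**
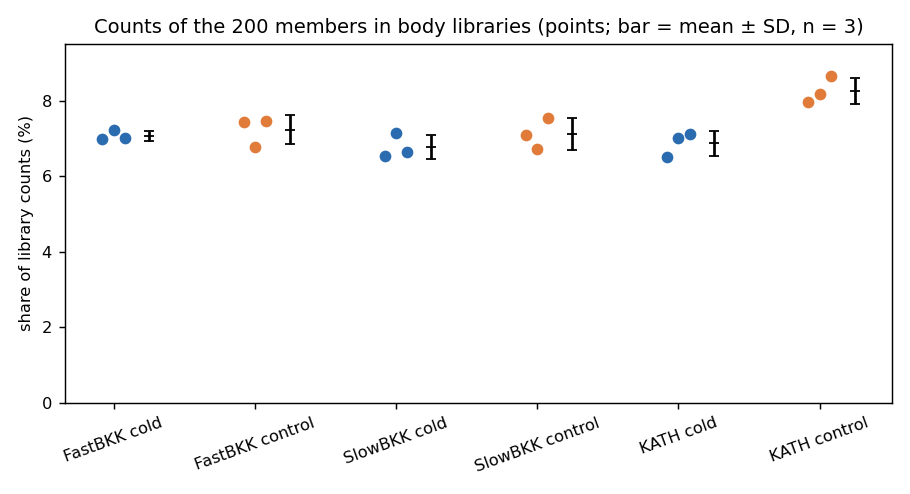
Share of each body library's counts held by the 200 members, in percent (points), with the mean and SD over 3 libraries as bars beside them; cold groups are blue and control groups orange. KATH control bodies lie highest, at 8.26% ± 0.34, and the cold and control points overlap in FastBKK and in SlowBKK.

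The body-restricted genes that the threshold left out had larger cold responses in the body than the members. The 99 genes under the threshold had a median log2 fold change of -1.14 in FastBKK bodies, -1.01 in those of SlowBKK and -0.61 in those of KATH, and 76, 67 and 62 of them were called lower in these lines (25.2%, 24.0% and 28.9% of all genes). The counts called higher were 9, 8 and 11 (25.2%, 23.4% and 29.7% of all genes). The 496 genes over the threshold but below the members in abundance had medians of -0.09, -0.08 and -0.25. The body ratio set the sides of the threshold, so the contrast between them is given as a description.

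**Figure D5:**
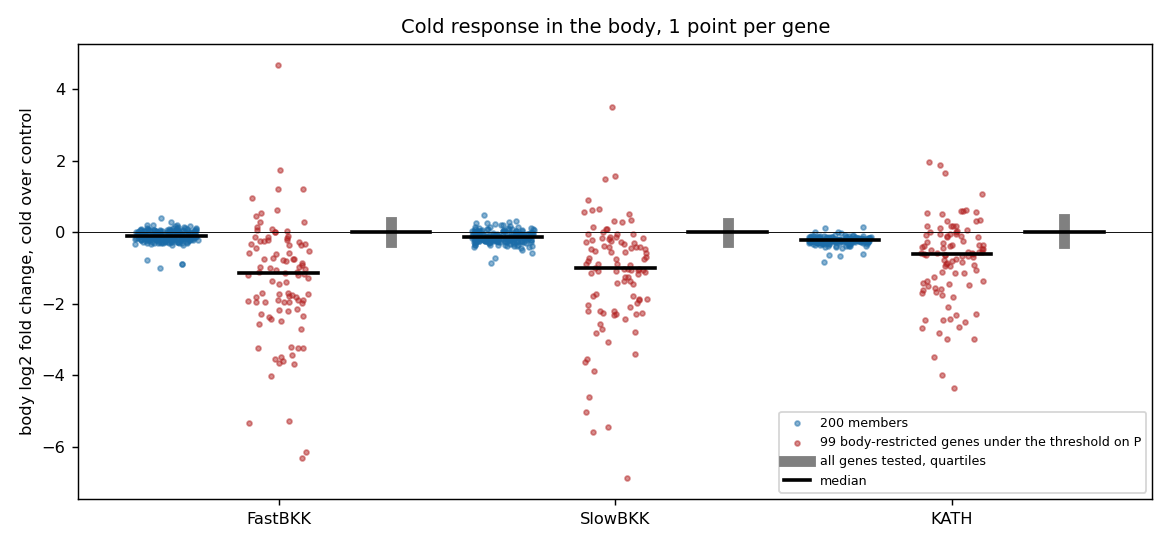
Log2 fold change of cold over control in the body, by line, with 1 point per gene for the 200 members (blue) and for the 99 body-restricted genes under the threshold (red), and the quartiles over all genes tested as a grey bar. Black bars are medians: -0.10, -0.14 and -0.22 for the members and -1.14, -1.01 and -0.61 for the genes under the threshold, in FastBKK, SlowBKK and KATH.

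In the cold bodies 41 members were called lower in all 3 lines and 1 was called higher in all 3, where 13.8% of all genes tested were lower and 14.3% higher in all 3. A further 9 members were called with opposite signs in different lines (2.46% of all genes), and 9 were called in none (22.3%). These shares of all genes, too, were not matched for abundance. GF18165 (FBgn0095183, scaffold_13340) fell most in FastBKK, whereas GF11209 fell further than it in SlowBKK and KATH. GF18165 had 193, 204 and 180.2 scaled CPM in cold FastBKK bodies, against 387, 404 and 360.4 in control bodies. The log2 fold change was -0.995 ± 0.08 SE (adjusted p = 2.5e-08). In SlowBKK it had 214, 195 and 189.8 in cold bodies, against 328, 299 and 355 in control bodies (log2 fold change -0.71). In KATH it had 196, 207 and 227 in cold bodies, against 319, 356 and 326 in control bodies (-0.67). Cold and control libraries did not overlap in any line.

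GF11209 (FBgn0088249, scaffold_13266) fell by a similar amount in each line. It had 234, 239 and 256 scaled CPM in cold FastBKK bodies, against 412, 441 and 403 in control bodies. In SlowBKK it had 196, 181 and 177 in cold bodies, against 334, 319 and 342 in control bodies, and in KATH 211, 221 and 199.5 in cold bodies, against 381, 413 and 324 in control bodies. The log2 fold changes were -0.78, -0.85 and -0.82 in FastBKK, SlowBKK and KATH (adjusted p at most 2.56e-07). GF18253 had log2 fold changes of -0.88, -0.58 and -0.60, and GF12168 of -0.27, -0.49 and -0.64, in the same order of lines. GF12168 in FastBKK was not called with column-sum scaling (adjusted p = 0.0559).

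GF20344 (FBgn0097351, scaffold_13417) was the member higher in all 3 cold bodies. It had 190.1, 196 and 191 scaled CPM in cold FastBKK bodies, against 147, 139 and 151 in control bodies (log2 fold change 0.40 ± 0.06 SE, adjusted p = 1.33e-05). In SlowBKK it had 196, 193 and 208 in cold bodies, against 142, 147 and 140.0 in control bodies (0.48). In KATH it had 168, 193 and 188 in cold bodies, against 168, 162 and 166 in control bodies, and the log2 fold change of 0.15 (adjusted p = 0.0307) ranged over alternatives in adjusted p between 0.00444 and 0.166. The 4 KATH libraries whose removal ended its call were cold replicates 3 and 4 (adjusted p = 0.145 and 0.102) and control replicates 2 and 4 (0.0941 and 0.166).

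The 4 members with the lowest body ratios in FastBKK control hindgut replicate 3 included 3 that fell in cold FastBKK bodies. These were GF18253 (-0.88), GF16741 (-0.88) and GF18165 (-0.995), each with an adjusted p of at most 6.8e-07. The other, GF23789, had 0.04 in FastBKK, 0.32 in SlowBKK and -0.07 in KATH. Among the members with the highest ratios, GF11131 had 0.22 in FastBKK (adjusted p = 0.00258), 0.16 in SlowBKK and -0.09 in KATH, and GF17923 had -0.12 in FastBKK (adjusted p = 0.168). GF11209 had -0.78 in FastBKK and an ordinary body ratio of 4.40%.

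Between control bodies, KATH was higher than SlowBKK for 124 members and higher than FastBKK for 80, whereas 17 members differed between the Bangkok lines. KATH minus SlowBKK also had 1 member lower (37.7% of all genes were called, 15.8% higher and 21.9% lower), with a median log2 difference of 0.19. KATH minus FastBKK also had 1 lower (33.5% of all genes called, 14.5% higher and 19.0% lower), with a median of 0.13, and 47 were called without FastBKK control replicate 3. These comparisons share the KATH control libraries with each other, with the cold KATH contrast and with the KATH interactions, so the results are not independent. Of the body groups, KATH control bodies had the highest scaled sum over the members (81850 ± 1620 CPM, SD). In FastBKK minus SlowBKK 14 were higher and 3 lower (14.2% of all genes called, 7.26% higher and 6.93% lower), with a median of 0.06, and the count of 17 was 10 without FastBKK control replicate 1, 7 without FastBKK control replicate 4, 5 without SlowBKK control replicate 2 and 3 without SlowBKK control replicate 3. The medians over all genes tested lay between -0.04 and 0.00.

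The member lower in KATH than in both Bangkok lines was GF14001 (FBgn0091028, scaffold_12916). It had 505, 484 and 548 scaled CPM in KATH control bodies, against 721, 749.8 and 774 in FastBKK and 725, 729 and 744 in SlowBKK control bodies. The log2 differences were -0.55 ± 0.06 SE from FastBKK (adjusted p = 2.63e-06) and -0.52 ± 0.06 SE from SlowBKK (adjusted p = 6.71e-06), with no overlap. GF23789 was higher in KATH, with 293, 266 and 226 in KATH control bodies, against 199.5, 190.2 and 204 in FastBKK and 154, 170.3 and 143 in SlowBKK control bodies. Its log2 difference was 0.75 from SlowBKK (adjusted p = 9.41e-05). GF19693 had 219, 192 and 227 in FastBKK control bodies and 272, 255 and 227 in KATH control bodies, against 169, 158 and 163 in SlowBKK control bodies, and was called higher than SlowBKK in both lines (0.38 in FastBKK, 0.62 in KATH).

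GF22442 and GF22493, on scaffold_13248 and with lengths of 901 and 899 bases, had similar values in control bodies. In FastBKK control bodies GF22442 had 144, 97.5 and 138 scaled CPM and GF22493 had 136, 94.1 and 135, whereas in SlowBKK control bodies GF22442 had 169.6, 181 and 176 and GF22493 had 158, 170.0 and 171. Both were called lower in FastBKK than in SlowBKK (log2 differences -0.47 and -0.45, adjusted p = 0.0169 and 0.021). Without FastBKK control replicate 3, the lowest library of both, the adjusted p was 0.055 for GF22442 and 0.071 for GF22493; it was also above 0.05 without SlowBKK control replicate 3 (0.0576 and 0.0686) and without SlowBKK control replicate 4 (0.0502 and 0.0714). Both were higher in KATH than in FastBKK control bodies (0.65 and 0.62). If the pair are near-identical copies, the counting may have split reads between them, so their single values are uncertain. GF18856, the other member lower in FastBKK and named after its value was seen, had a log2 difference of -0.26 from SlowBKK (adjusted p = 0.024).

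The difference between lines in cold response was tested as an interaction. For KATH minus FastBKK 40 members were called, 39 of them with a lower response in KATH (14.1% of all genes were called, 8.86% higher and 5.26% lower). For KATH minus SlowBKK 33 were called, 32 of them lower in KATH (20.8% of all genes called, 12.6% higher and 8.2% lower). With both directions together, this was a smaller share of the 200 members than of all genes. For FastBKK minus SlowBKK 1 was called, again a smaller share, with a lower response in FastBKK (3.22% of all genes, 1.41% higher and 1.81% lower). Each pair of these contrasts shares the libraries of 1 line, and the counts rested in part on single libraries: KATH minus FastBKK was 23 without FastBKK control replicate 3 and 26 without KATH control replicate 2, and KATH minus SlowBKK was 19 without KATH cold replicate 2, 20 without SlowBKK cold replicate 4 and 50 without SlowBKK control replicate 4. For FastBKK minus SlowBKK 0 were called in 9 of the 12 fits that left out 1 library, and 3 without SlowBKK cold replicate 3.

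GF16637 and GF16730, both of 2846 bases on scaffold_13340, had the smallest p for the difference between KATH and FastBKK, though not the largest differences. Called differences in this contrast ran from -0.53 to 0.71. GF16637 had 289, 289 and 297 scaled CPM in cold KATH bodies, against 339, 351 and 374 in control KATH bodies, and 286, 311 and 321 in cold FastBKK bodies, against 264, 283 and 266 in control FastBKK bodies. The groups did not overlap in either line and moved in opposite directions. The difference in log2 response was -0.46 ± 0.08 SE for GF16637 (adjusted p = 0.00121) and -0.39 ± 0.07 SE for GF16730 (adjusted p = 0.00155). Reads of this pair, too, could be shared if the genes are copies, which was not tested.

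GF14399 had the lowest difference between KATH and SlowBKK, at -0.61 ± 0.10 SE (adjusted p = 0.000804). It had 212, 232 and 234 scaled CPM in cold KATH bodies, against 317, 299 and 271 in control KATH bodies. In SlowBKK it had 239.5, 226 and 249.9 in cold bodies, against 204, 204 and 207 in control bodies. GF17662 followed by p, at -0.34 (adjusted p = 0.00303). The members with a higher response in KATH, named after their values were seen, were GF16741 against FastBKK (0.71, adjusted p = 0.00168) and GF14001 against SlowBKK (0.29, adjusted p = 0.0172). GF16741 was also the member that differed between FastBKK and SlowBKK (-0.50 ± 0.13 SE, adjusted p = 0.045). It had 215, 188 and 165 scaled CPM in cold FastBKK bodies, against 386, 339 and 317 in control FastBKK bodies, and 275, 265 and 258 in cold SlowBKK bodies, against 372, 335 and 331 in control SlowBKK bodies. Its adjusted p for this difference ranged between 0.0184 and 0.0887 over the alternatives other than DESeq2 (0.00861), and it was above 0.05 with any library of either line left out but FastBKK cold replicate 1.

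The hindgut comparisons that contain FastBKK control hindgut replicate 3 carry the choice of the members, so their counts are descriptions. Of the 200 members, 115 passed the filter on low counts over the 18 hindgut libraries. In the cold hindgut of FastBKK 85 members were called lower and 0 higher, where 23.1% of all 11323 genes tested were lower and 23.6% higher (46.7% called). The median log2 fold change over these members was -5.19. Without FastBKK control hindgut replicate 3, 115 members again passed the filter, 0 were called lower (21.9% of all genes) and 5 higher (23.4% of all genes, 45.4% called), 12 had an unadjusted p under 0.05, and the median log2 fold change was 0.66. With that library kept, the count was 177 without control replicate 1 and 181 without control replicate 4, where 189 members passed the filter and the library was 1 of only 2 controls; it was 12, 8 and 27 without cold replicates 1, 3 and 4.

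The 5 members called higher in the cold hindgut of FastBKK without that library, named after their values were seen, were GF10279, GF17158, GF21754, GF26799 and GF27997. GF27997 had 0.999, 0.815 and 1.82 CPM in cold hindguts, against 0.0936 and 0.148 CPM in control replicates 1 and 4, and 13.6 CPM in replicate 3. GF10279 had 1.97, 1.78 and 2.90 CPM in cold hindguts, against 0.468 and 0.652 CPM in control replicates 1 and 4, and 30.4 CPM in replicate 3. Their adjusted p ran between 0.00254 and 0.0473. With the library kept, the log2 fold changes of the 5 lay between -3.14 (GF26799) and -1.58 (GF17158), opposite in sign, and none was called (edgeR adjusted p = 0.0740 to 0.209).

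In the hindgut of the other lines few members were called. In SlowBKK GF23789 alone was called (51.7% of all genes, 26.3% higher and 25.5% lower), as given above. In KATH 0 members were called by edgeR (45.7% of all genes, 22.6% higher and 23.0% lower), 7 had an unadjusted p under 0.05, and DESeq2 called 3. Between control hindguts, FastBKK minus SlowBKK had 11 members higher (6.0% of all genes called, 2.65% higher and 3.35% lower) and 0 without FastBKK control hindgut replicate 3 (3.34% called, 1.46% higher and 1.88% lower), where 3 had an unadjusted p under 0.05. KATH minus FastBKK had 6 members lower (9.7% of all genes called, 5.16% higher and 4.54% lower) and, without that library, 0 lower and 3 higher (6.67% called, 3.43% higher and 3.23% lower). The 3 members higher in KATH minus FastBKK, named after their values were seen, were GF14399, GF15053 and GF23790, and the highest KATH value of each, between 1.19 and 2.89 CPM, was in KATH control hindgut replicate 1, where the members' median body ratio was 0.544%. With that library kept, FastBKK minus SlowBKK had 85 and 78 members called without FastBKK control replicates 1 and 4, and 0 without SlowBKK control replicate 1, 2 or 5. KATH minus FastBKK then had 18 and 15 without FastBKK control replicates 1 and 4, and 0 without KATH control replicate 4 or 5. The cold KATH hindgut count was 1, 3 and 4 without control replicates 1, 4 and 5. KATH minus SlowBKK had 0 members called by edgeR (9.94% of all genes called, 4.82% higher and 5.12% lower), and 4 had an unadjusted p under 0.05.

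Beyond level, the members resembled the gene table in median length and in their spread over scaffolds. Their median length was 1521.5 bases, beside 1347.5 for the less abundant genes over the threshold, 897 for the genes under it and 1495 for all genes. They were spread over scaffolds much as all genes were, with 21.5% on scaffold_13340, beside 19.9% of all genes, and 18.5% on scaffold_12916, beside 13.4%. On the gene symbols' running numbers, of which 85.7% of consecutive pairs share a scaffold, 18 members stood in 9 consecutive pairs, among them GF24338 with GF24339 and GF10595 with GF10596. Those 18 were 9% of the members. With a neighbour of their own set stood 15.1% of the 496 less abundant genes over the threshold and 22.2% of the 99 genes under it. The sets differ in size, and the share that random sets of genes would give was not computed.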

How the data were processed

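Poly-A RNA-seq was measured in bodies, hindguts and Malpighian tubules. The authors deposited raw counts per gene as whole numbers, per the file headers, with symbol, scaffold and length; FastQC 0.11.9 is named in the submitters' processing notes, and the aligner, counter, build and strand setting are not given in the sources used here. Antisense and overlapping genes may therefore share counts. The members and lists were chosen with earlier results of these data known.

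Member choice and organ levels used CPM on column sums. Body and hindgut libraries (18 each) were fitted separately with edgeR 4.0.16 in R 4.3.3: filterByExpr, TMM scaling, 1 coefficient per line and treatment, quasi-likelihood F test, two-sided, Benjamini-Hochberg over all genes tested, called at an adjusted p under 0.05. Scaled CPM are TMM-scaled. The fit was tested on simulated data with 2-fold changes. No called member changed by more than that in the body, and smaller changes were not simulated. Replicate pairs differed beyond sampling noise (chi-square per degree of freedom at least 11.0 in the body and 28.0 in the hindgut), so all were kept. Fold changes are log2. Intervals and the floor of 3 counts cover counting error only, since no molecular identifiers were used.

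Genes were named by rule: highest body CPM, highest and lowest ratio and those just outside the threshold, strongest cold response of 1 sign, line difference and interaction in the body, and highest level in another organ library. Planned gene lists by product name matched 0 genes and were not used. Alternatives were RLE scaling, DESeq2 1.42.0, no filter, a replicate block, only the groups compared, a fold change over 2, and each library left out; column-sum scaling and the members without the 4 lowest ratios were added after seeing the data.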

Additional observations from a re-analysis of the deposited data

Results flagged for a closer look

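The difference between lines in the members' cold response in the body was tested as an interaction in edgeR. It was called for 40 members in KATH minus FastBKK, beside 14.1% of all genes tested. In KATH minus SlowBKK it was called for 33, a smaller share of the 200 members than of all genes (20.8%). The same held in FastBKK minus SlowBKK, where 1 was called (3.22% of all genes). For the last contrast 0 were called in 9 of the 12 fits that left out 1 library. In KATH minus FastBKK the 2 with the smallest p were GF16637 (-0.46) and GF16730 (-0.39). In KATH minus SlowBKK they were GF14399 (-0.61) and GF17662 (-0.34). In FastBKK minus SlowBKK the member called was GF16741 (-0.50). All values are differences of log2 fold changes, each set of 3 cold against 3 control libraries per line.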

How the results depend on the processing

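Of 263 values of 18 results under the alternatives, 156 stayed within 1.5 times the reported count or, for the body ratio, within its SD. Of 30 results on single named members, 0 turned their direction and 6 lost their call in at least 1 alternative other than the fold requirement. A fold change over 2 left 0 members in every body count. The replicate block gave 7 higher in cold FastBKK and 0 in cold KATH bodies, 7 in control FastBKK minus SlowBKK, 26, 21 and 0 for the interactions KATH minus FastBKK, KATH minus SlowBKK and FastBKK minus SlowBKK, and in the hindgut 2 lower in cold FastBKK, 14 in cold KATH and 0 in both line differences; same-numbered libraries had correlations of deviations of -0.23 to 0.14 in the body and -0.20 to 0.30 in the hindgut, so the numbers did not pair them. Only the groups compared gave 6 higher in cold FastBKK and 0 in cold KATH bodies, 5 and 48 for FastBKK minus SlowBKK and KATH minus FastBKK, 3 for the interaction FastBKK minus SlowBKK, and in the hindgut 1 lower in cold FastBKK, 8 in SlowBKK, 1 in KATH and 0 in both line differences. DESeq2 gave 8 for the interaction FastBKK minus SlowBKK and, in the hindgut, where DESeq2 gave 20 members an adjusted p, 18 lower in cold FastBKK, 3 in KATH and 3 in KATH minus FastBKK. RLE scaling gave 0 higher in cold KATH bodies, and no filter gave 5 and 3 for FastBKK minus SlowBKK and KATH minus FastBKK in the hindgut. Column-sum scaling, besides the cold body counts in the report (19, 25, 19, 37 and 0 moved), gave 9 for FastBKK minus SlowBKK, 71 and 64 for the interactions of KATH minus FastBKK and minus SlowBKK, and 2 in cold SlowBKK hindguts; it shifted the median of all genes in the cold hindgut to 0.28, 0.37 and 0.33 in FastBKK, SlowBKK and KATH. TMM-scaled CPM gave a median body ratio of 6.77%.

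Leaving out 1 library gave 4 to 8 higher and 40 to 83 lower in cold FastBKK bodies, 3 to 7 and 50 to 105 in SlowBKK, and 0 to 1 and 116 to 165 in KATH; 3 to 15, 47 to 80 and 92 to 150 for the control differences FastBKK minus SlowBKK, KATH minus FastBKK and KATH minus SlowBKK; and 0 to 3, 23 to 48 and 19 to 50 for the interactions in the same order. In the hindgut the ranges were 0 to 181 lower in cold FastBKK, 0 to 1 in SlowBKK, 0 to 4 in KATH, 0 to 85 for FastBKK minus SlowBKK and 0 to 18 for KATH minus FastBKK, and the median body ratio stayed between 5.09% and 5.18%. Where 2 libraries were left in a group, the spread was pooled over all groups. Most members were under 1 CPM in most hindgut libraries, which their choice required, and the causes of these shifts were not tested.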
